A study of Mus musculus with 6 samples.

Results

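The genes described here are the water channels of the mouse kidney and the V2 vasopressin receptor, which controls Aqp2 in the collecting duct. They were chosen by symbol from the table of raw counts, as Aqp1, Aqp2, Aqp3, Aqp4, Aqp6, Aqp7, Aqp11 and Avpr2, which are 8 of the 55450 genes listed, and all 8 passed the filter on low counts, as 16592 genes did. Kidney mRNA was compared between a day-0 group (n = 3 mice), the control, and a day-21 group (n = 3 mice). Both groups were wild-type C57BL/6J males bought at 7 weeks of age and acclimatised for 1 week, and the labels name no altered allele or transgene. Mice of the day-21 group received adenine (0.16 g/kg) with potassium oxonate (2.4 g/kg) by daily gavage, the model of uric acid-induced kidney injury. The paper states that each group was sacrificed at its own day. By that schedule the day-21 mice were older, so that age cannot be told apart from treatment. The day-0 mice are labelled as given 20% PEG, and whether the day-21 mixture contained PEG is not given in the sources used here. Each library was made from unsorted kidney tissue, so that a lower level cannot be told apart between fewer cells of a type and less RNA per cell.

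Aquaporins are membrane channels through which water, and in some members glycerol or ions, crosses a cell membrane. In the collecting duct, vasopressin binds Avpr2 on principal cells, adenylyl cyclase makes cAMP, protein kinase A is activated and Aqp2 is brought to the apical membrane, while longer stimulation raises Aqp2 transcription. Water then leaves the cell through Aqp3 and Aqp4 in the basolateral membrane. The proximal tubule, upstream, reabsorbs most of the filtered water through Aqp1 without vasopressin.

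The libraries held 10963849 to 14333311 counts, and levels are given as CPM, counts brought to a common library total after TMM scaling. At this depth 3 counts, taken as the smallest visible level, corresponded to 0.179 to 0.309 CPM, and that limit covers counting error only. Differentially expressed genes (DEGs) needed both an adjusted p below 0.05 and a change of more than 1.5-fold. The test was the quasi-likelihood test of edgeR, and p-values were adjusted by Benjamini-Hochberg over all genes tested. This gave 5821 DEGs (35.1% of genes tested), 2572 of them (15.5%) lower and 3249 (19.6%) higher on day 21. Kidney identity was visible in both groups. The proximal tubule genes Lrp2, an endocytic receptor, and Slc34a1, a phosphate transporter, lay at 2410 CPM or more in each day-0 mouse and at 434 CPM or more in each day-21 mouse.

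Of the 8 genes, 7 were DEGs and lower on day 21, beside 15.5% of all genes tested, and the exception was the receptor, Avpr2. The same 7 had an adjusted p below 0.05 at any fold, which held for 45.6% of all genes (21.7% in the lower direction). No member was called higher by edgeR, DESeq2 or limma-voom, and none was higher at an unadjusted p under 0.05 in edgeR. The log2 fold changes (day 21 over day 0) of the members ran from -2.62 for Aqp4 to -0.24 for Avpr2 with a median of -1.59, beside a median of 0.03 over all genes tested. In each of the 7 called genes every day-21 mouse lay below every day-0 mouse, as in 26.4% of all genes tested (57.1% did not overlap in either direction). With 3 mice against 3, the exact two-sided permutation test cannot go below 0.1, and it gave 0.1 for each of these 7 genes.

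**Figure D1:**
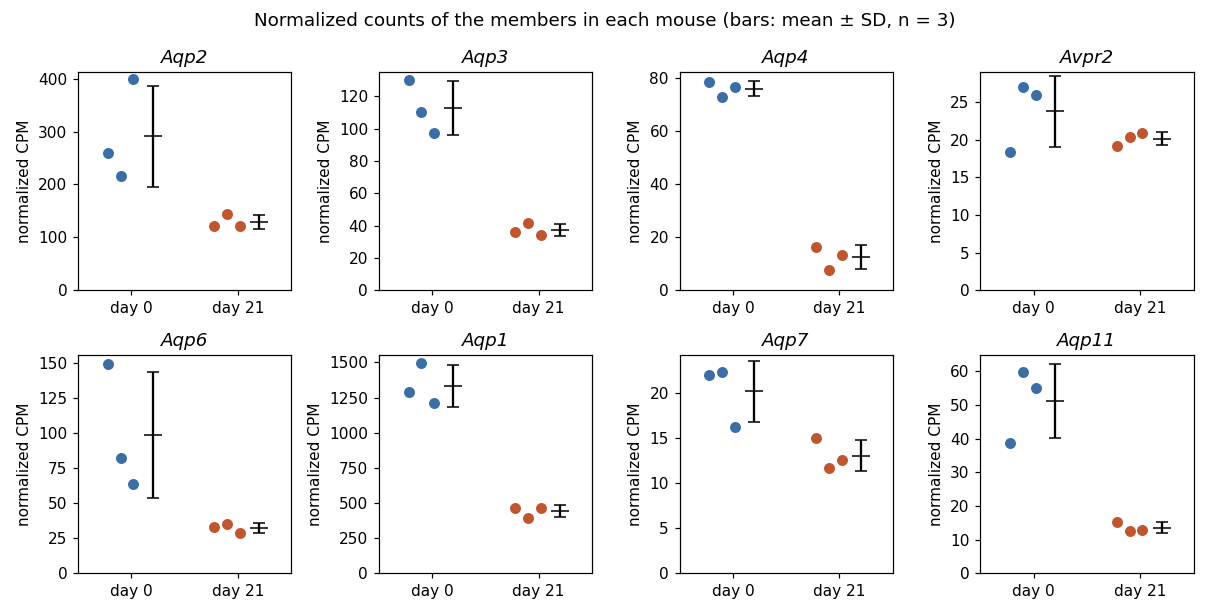
CPM of each of the 8 genes in each mouse, with 1 panel per gene and a linear axis from 0. Points are mice, horizontal bars are group means and error bars are SDs (n = 3). Avpr2 alone has overlapping groups (18.4 to 27.0 CPM on day 0 and 19.2 to 20.9 CPM on day 21).

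Promoter sequence was read for the genes of the vasopressin axis, since the channels were called lower while the receptor was not. Windows of 300 bases, from 250 before to 50 after the transcript start, come from RefSeq on GRCm38.p6, and 7 of the 8 genes were matched there (8 windows, as Aqp7 has 2), with Aqp4 not shown. Motifs were searched on both strands as the cAMP response element TGACGTCA, its shorter form TGACG (which lies inside the full element), the GATA motif AGATAA and the TATA box TATAAA. Capitals mark the matches in the 3 windows below, all written 5′ to 3′ on the strand of the gene.
Aqp2 (chr15:99578806-99579105, plus strand): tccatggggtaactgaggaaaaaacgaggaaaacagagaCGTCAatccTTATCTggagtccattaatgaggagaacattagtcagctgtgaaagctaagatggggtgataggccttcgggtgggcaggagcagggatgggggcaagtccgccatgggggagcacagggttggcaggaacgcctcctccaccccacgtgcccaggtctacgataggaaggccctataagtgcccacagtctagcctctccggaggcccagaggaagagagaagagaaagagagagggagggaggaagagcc
Aqp3 (chr4:41098134-41098433, minus strand): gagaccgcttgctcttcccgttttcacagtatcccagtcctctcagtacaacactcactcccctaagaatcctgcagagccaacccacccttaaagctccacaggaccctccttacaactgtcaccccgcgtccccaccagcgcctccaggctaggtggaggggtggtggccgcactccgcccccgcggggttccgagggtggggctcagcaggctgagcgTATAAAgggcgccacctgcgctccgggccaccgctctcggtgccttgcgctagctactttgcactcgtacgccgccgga
Avpr2 (chrX:73891852-73892151, plus strand): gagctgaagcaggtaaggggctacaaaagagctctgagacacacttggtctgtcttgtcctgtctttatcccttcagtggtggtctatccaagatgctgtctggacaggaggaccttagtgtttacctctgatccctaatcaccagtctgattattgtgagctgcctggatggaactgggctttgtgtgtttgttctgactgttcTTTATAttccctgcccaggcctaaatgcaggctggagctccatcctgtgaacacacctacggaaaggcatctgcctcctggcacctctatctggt

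In the Aqp2 window the short cAMP response element was found on the opposite strand, as CGTCA at position -211 from the start, next to a GATA match written TTATCT at -202. The Aqp3 window held the TATA box at -29. In the Avpr2 window the same motif was read on the opposite strand, as TTTATA at -45. Among the 8 windows, the short cAMP element was present in 1, the GATA motif in 2 (Aqp2 and 1 window of Aqp7) and the TATA box in 2. Among all 32851 promoters of the same length, these motifs were present in 20.8%, 11.2% and 13.6%. The full cAMP response element (1.79% of all promoters) was found in none of the 8 windows, and none of these motifs was found in those of Aqp1, Aqp6 and Aqp11. Such matches describe the letters in these windows and were not tested against the change in mRNA.

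Avpr2 (ENSMUSG00000031390.8) encodes the V2 receptor, the Gs-coupled receptor through which vasopressin acts on principal cells. It lies on chromosome X of GRCm38 from 73892102 to 73895502, on the plus strand. Its CPM was 18.4, 27.0 and 26.0 in the day-0 mice (replicates 1 to 3) and 19.2, 20.3 and 20.9 in the day-21 mice. The day-21 values sat inside the day-0 range. The mean was 23.8 ± 4.74 (SD, n = 3) on day 0 and 20.1 ± 0.884 (SD, n = 3) on day 21, which is 84.6% of the day-0 mean. The log2 fold change was -0.24 (SE 0.16, 95% interval -0.60 to 0.12), with an adjusted p of 0.25 in the edgeR test, and the exact two-sided permutation p was 0.4.

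The interval of Avpr2 thus includes 0 as well as a decrease by 0.60 on the log2 scale. Day-0 replicate 1 held the lowest Avpr2 level of all mice, and without it the log2 fold change was -0.42 with an adjusted p of 0.031 in edgeR, still under a fold of 1.5. With library size alone in place of TMM scaling the sign turned, to 0.15 (adjusted p of 0.446 in edgeR). Of the exonic bases of Avpr2, 2347 (81.3%) also lie in exons of Arhgap4, a GTPase-activating protein gene on the opposite strand, and whether reads were counted by strand is not given in the sources used here. The value of Avpr2 may therefore include reads of Arhgap4, or reads that overlap both may have been left out of it. The same limit applies to the ratios and the level per length of Avpr2 given below. Arhgap4 itself held 17.2, 33.96 and 30.7 CPM on day 0 and 23.9, 26.3 and 24.1 CPM on day 21. The counts of both genes summed gave a log2 fold change of -0.19 (SE 0.18) with an adjusted p of 0.422 in edgeR.

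Aqp2 (ENSMUSG00000023013.5) encodes the vasopressin-regulated apical water channel of principal cells. It occupies chromosome 15 from 99579055 to 99584547 on the plus strand. The 3 day-0 mice held 259, 216 and 399 CPM, and the 3 day-21 mice held 122, 145 and 122 CPM. The groups were apart, and the day-0 mice were the more scattered, with replicate 3 the highest. The mean fell from 291 ± 95.5 (SD, n = 3) to 130 ± 13.2 CPM (SD, n = 3), to 44.5% of day 0. The log2 fold change was -1.17 (SE 0.20, 95% interval -1.62 to -0.72) with an adjusted p of 0.000988 in the edgeR test, and it was -0.89 without day-0 replicate 3.

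Aqp3 (ENSMUSG00000028435.8), an aquaglyceroporin that passes both water and glycerol, forms an exit path in the basolateral membrane of the same cells. It lies on the minus strand of chromosome 4 between 41092722 and 41098183. Its CPM was 130, 110 and 97.1 on day 0 and 36.1, 41.6 and 34.4 on day 21. Each day-21 mouse lay far below the lowest day-0 mouse. The day-21 mean of 37.3 ± 3.78 CPM (SD, n = 3) was 33.2% of the day-0 mean of 112 ± 16.7 CPM (SD, n = 3), and the log2 fold change was -1.59 (SE 0.14, adjusted p of 1.16e-05 in edgeR). Urothelium also expresses Aqp3. Of 6 urothelial markers, 1 (Krt20) was called higher by edgeR but not by DESeq2 and 1 (Upk1a) lower, and their summed level ran from 13.8 to 21.5 CPM on day 0 and from 58.7 to 73.6 CPM on day 21. Krt20 made up most of the day-21 sum, and without it the other 5 markers summed to 4.21 to 21.0 CPM on day 0 and 5.49 to 11.2 CPM on day 21, with overlapping groups. The part of urothelium in the Aqp3 value was not tested.

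Aqp4 (ENSMUSG00000024411.10, chromosome 18) encodes the other basolateral exit channel, which passes water only. The day-0 mice held 78.5, 73.0 and 76.8 CPM and the day-21 mice 16.5, 7.52 and 13.3 CPM. Day-0 mice were nearly alike, whereas day-21 replicate 2 held less than the other day-21 mice. From 76.1 ± 2.85 (SD, n = 3) the mean fell to 12.4 ± 4.54 CPM (SD, n = 3), to 16.3% of day 0. With a log2 fold change of -2.62 (SE 0.23, 95% interval -3.13 to -2.11, adjusted p of 1.34e-05 in edgeR), Aqp4 had the lowest estimate of the 8 genes.

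Aqp4 is also expressed by proximal tubule cells of the mouse, whose markers fell strongly in the same libraries. All 8 proximal tubule markers were called lower, with a median log2 fold change of -2.23, and their summed level ran from 10150 to 11450 CPM on day 0 and from 1845 to 2281 CPM on day 21. The part of this segment in the Aqp4 value was not tested.

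For 3 pairs of principal cell genes with Aqp4 or the receptor, the log2 ratio within each mouse did not overlap between the groups, out of 5 pairs compared. The share over all pairs of genes was not computed, and 57.1% of single genes tested did not overlap in CPM. The log2 ratio of Aqp4 to Aqp2 was -1.72, -1.57 and -2.38 on day 0 and -2.89, -4.27 and -3.20 on day 21, a difference of -1.56. Aqp4 to Aqp3 differed by -1.10 between the groups. The log2 ratio of Aqp2 to Avpr2 was 3.82, 2.999 and 3.94 on day 0 and 2.67, 2.83 and 2.55 on day 21, a difference of -0.90. For each of these 3 the exact two-sided permutation p was 0.1, the smallest that 3 mice against 3 allow, and 0.167 after Benjamini-Hochberg adjustment over the 5 pairs. The ratios of Aqp3 to Aqp2 (difference -0.46, exact permutation p of 0.4) and of Aqp1 to Aqp2 (difference -0.47, exact permutation p of 0.3) overlapped between the groups.

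**Figure D2:**
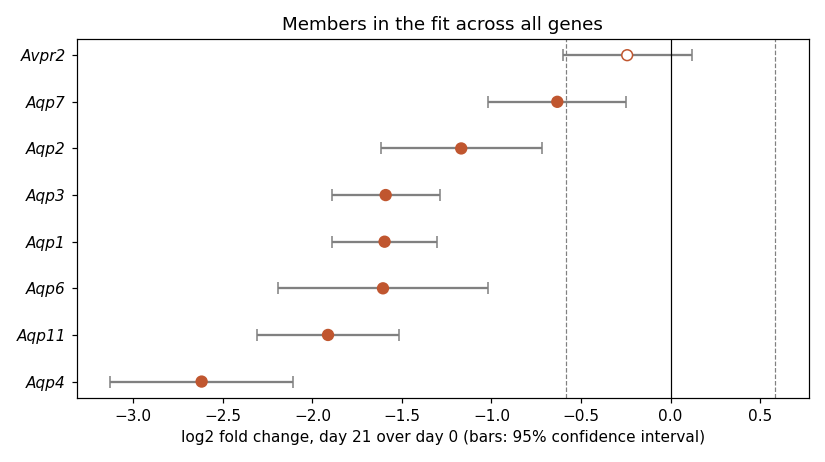
Log2 fold change (day 21 over day 0) of the 8 genes from edgeR, with points as estimates (filled for DEGs, open for not called), bars as 95% intervals and dashed lines at a 1.5-fold change. The interval of Avpr2 (-0.60 to 0.12) crosses 0, and the other 7 intervals lie below 0, that of Aqp4 the lowest (-3.13 to -2.11).

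Aqp6 (ENSMUSG00000043144.6) encodes a channel of intracellular vesicles in the acid-secreting intercalated cells, known for passing anions. It lies on chromosome 15 from 99601400 to 99605477, downstream of Aqp2 and of Aqp5 (99590782 to 99594829). The CPM of Aqp6 was 150, 82.1 and 64.1 on day 0 and 33.0, 35.4 and 28.7 on day 21. Day-0 replicate 1 was well above the other day-0 mice, and no day-21 mouse reached the day-0 range. The mean fell from 98.6 ± 45.1 to 32.4 ± 3.43 CPM (SD, n = 3 each), to 32.8% of day 0. Its log2 fold change was -1.61 (SE 0.26, adjusted p of 0.000725 in edgeR), and -1.20 without day-0 replicate 1.

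Most intercalated cell markers fell beside Aqp6. Of 6 markers, 4 were called lower and 0 higher, beside 15.5% and 19.6% of all genes tested, with a median log2 fold change of -0.78. The 2 not called, both with overlapping groups, were Foxi1 (log2 fold change -0.31) and Atp6v0d2 (0.14, the other direction). Slc4a1, the basolateral anion exchanger of acid-secreting cells, held 104, 65.0 and 51.2 CPM on day 0 and 10.04, 10.02 and 7.90 CPM on day 21 (log2 fold change -2.97, SE 0.25, adjusted p of 1e-05 in edgeR). Slc4a1 is also a red cell gene, and 5 of 5 erythroid markers tested were called lower, their summed level running from 227 to 525 CPM on day 0 and from 33.8 to 77.9 CPM on day 21. Slc26a4, the apical exchanger pendrin of base-secreting cells, changed by -1.71 on the log2 scale (SE 0.17, adjusted p of 3.02e-05 in edgeR).

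Aqp1 (ENSMUSG00000004655.5) encodes the constitutive water channel of the proximal tubule and the thin descending limb, and it is also present in the endothelium of the vasa recta and in red cells. It lies on the plus strand of chromosome 6 from 55336432 to 55348555. Its level was 1293, 1497 and 1209 CPM on day 0 and 468, 392 and 463 CPM on day 21. The groups were far apart compared with the spread inside each. The mean fell from 1333 ± 148 to 441 ± 42.6 CPM (SD, n = 3 each), to 33.1% of day 0, with a log2 fold change of -1.60 (SE 0.13, 95% interval -1.89 to -1.30, adjusted p of 9.41e-06 in edgeR). Of 6 endothelial markers 1 was called lower (Kdr, the VEGF receptor, log2 fold change -1.33), and their summed level ran from 513 to 598 CPM on day 0 and from 287 to 477 CPM on day 21. The parts of endothelium and red cells in the Aqp1 value were not tested.

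Aqp11 (ENSMUSG00000042797.9) encodes an intracellular channel located in the endoplasmic reticulum of proximal tubule cells. It is found on chromosome 7 (97724006 to 97738289, minus strand). The day-0 mice held 38.7, 59.9 and 55.0 CPM, and the day-21 mice held 15.4, 12.5 and 13.0 CPM. No value of one group reached the other. The mean fell from 51.2 ± 11.1 to 13.6 ± 1.57 CPM (SD, n = 3 each), to 26.6% of day 0 (log2 fold change -1.91, SE 0.18, adjusted p of 1.82e-05 in edgeR).

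Aqp7 (ENSMUSG00000028427.13) encodes an aquaglyceroporin of the brush border in the straight proximal tubule, where it takes up glycerol. Its locus, chromosome 4 from 41033074 to 41048139 on the minus strand, neighbours that of Aqp3. Aqp7 had 22.0, 22.3 and 16.3 CPM on day 0 and 15.0, 11.6 and 12.6 CPM on day 21. The highest day-21 mouse lay just under the lowest day-0 mouse. The mean fell from 20.2 ± 3.39 to 13.1 ± 1.73 CPM (SD, n = 3 each), to 64.7% of day 0, and the log2 fold change was -0.63 (SE 0.17, 95% interval -1.02 to -0.25, adjusted p of 0.0131 in edgeR).

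The fold of Aqp7, 1.55, lay close to the threshold of 1.5, and Aqp7 was the only one of the 7 whose call ended under any alternative run. It ended with upper-quartile scaling (-0.55), with library size alone (-0.24, adjusted p of 0.238 in edgeR), and without day-0 replicate 2 (-0.55), day-21 replicate 2 (-0.55) or day-21 replicate 3 (-0.60), while the sign was kept each time. Of the 50-base words in its longest transcript, 4.32% also occurred in other genes. Adipocytes express Aqp7 as well. The adipocyte markers summed to between 0.401 and 44.3 CPM on day 0 and between 0.537 and 1.63 CPM on day 21, and their highest sum was in day-0 replicate 3, the day-0 mouse with the lowest Aqp7. Adipoq, their defining gene, was at 0 in day-0 replicate 1 and in day-21 replicates 1 and 2, and the part of fat in the Aqp7 value was not tested.

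Each gene was next set against markers of the cells in which it is chiefly known, as the log2 ratio of its CPM to the geometric mean of the markers' CPM in the same mouse. The markers were 5 for principal cells, 6 for intercalated cells and 8 for the proximal tubule. Principal cell markers were not called in either direction (0 of 5, with 2 higher at an unadjusted p under 0.05 in edgeR and 0 called by DESeq2 or limma-voom), and their median log2 fold change was 0.31. Scnn1b was higher with an adjusted p of 0.0287 in edgeR, and it missed the call only on its fold of 1.40. The summed level of the 5 markers was higher on day 21 without overlap, from 396 to 527 CPM on day 0 and from 551 to 633 CPM on day 21. Of all single genes tested, 30.7% were higher without overlap, and only 1 of the 5 markers did not overlap by itself. Fxyd4 alone went the other way (log2 fold change -0.31, SE 0.28, adjusted p of 0.397 in edgeR). Among the 5 markers, Hsd11b2, the enzyme that keeps glucocorticoids from the mineralocorticoid receptor, held 121, 178 and 141 CPM on day 0 and 163, 217 and 165 CPM on day 21 (log2 fold change 0.31, SE 0.16, adjusted p of 0.152 in edgeR).

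Relative to principal cell markers, all 4 genes of these cells lay lower in every day-21 mouse than in any day-0 mouse, as did 33.1% of all genes tested. Over genes counted in every mouse the median difference relative to these markers was -0.21. The log2 ratio of Aqp2 was 2.19, 1.44 and 2.50 on day 0 and 0.65, 0.76 and 0.62 on day 21, a difference of -1.37. For Aqp3 the difference was -1.83 and for Aqp4 -2.93. The ratio of Avpr2 was -1.62, -1.56 and -1.44 on day 0 and -2.02, -2.07 and -1.93 on day 21. Its difference of -0.46 was small beside those of the channels, and it ran from -0.58 to -0.40 as each marker was left out. Aqp6 relative to intercalated cell markers did not overlap between the groups (lower on day 21, as in 2.31% of all genes tested) and differed by -0.47, but by -0.85 without Slc4a1 among the markers and by -0.24 without Atp6v0d2, and it was -0.29 without day-0 replicate 1. Over genes counted in every mouse the median difference relative to intercalated cell markers was 1.08. These markers include genes of acid-secreting and of base-secreting cells. Slc4a1, of acid-secreting cells, had a lower log2 fold change (-2.97) than Aqp6 (-1.61).

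Relative to proximal tubule markers, the 3 genes of that segment lay higher in every day-21 mouse than in any day-0 mouse. The log2 ratio of Aqp1 was 0.90, 0.83 and 0.51 on day 0 and 1.65, 1.91 and 1.76 on day 21, a difference of 1.03. Aqp7 differed by 2.00 and Aqp11 by 0.73. This was not particular to the channels, since 97% of all genes tested lay higher in every day-21 mouse relative to these markers, and the median difference over genes counted in every mouse was 2.66. All 3 channels were below that median. The size depended on the markers, since without Slc22a7, whose level fell to 2.53% of day 0, the differences were 0.66 for Aqp1 and 0.36 for Aqp11. For each of the 8 ratios the exact two-sided permutation p was 0.1, the smallest this design allows, and it remained 0.1 after Benjamini-Hochberg adjustment over the 8.

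**Figure D3:**
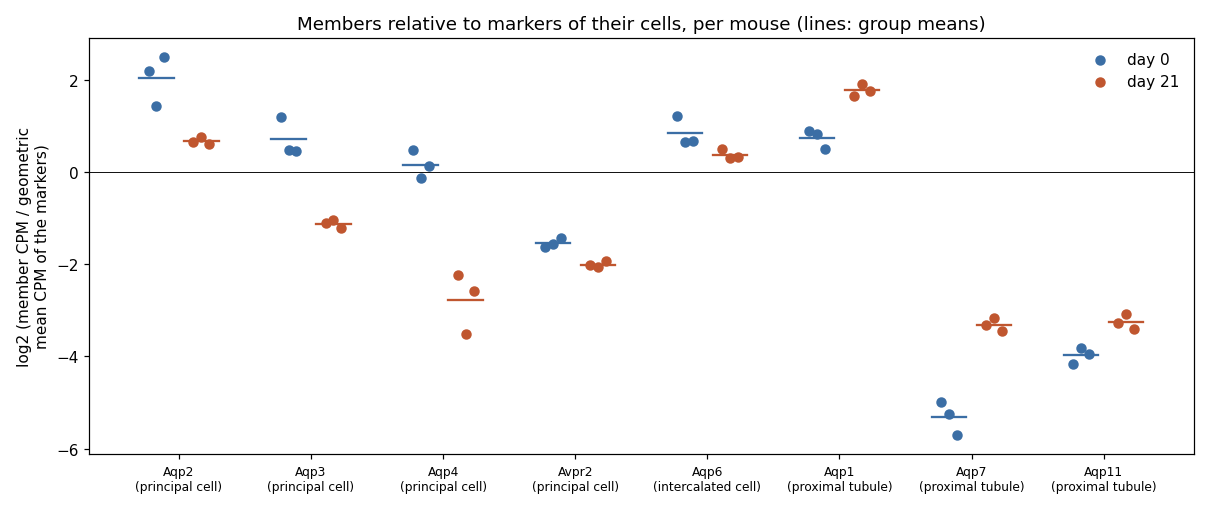
Log2 ratio of each gene's CPM to the geometric mean of markers of its cell type, by mouse, with day-0 and day-21 mice in separate colours and short bars at group means (n = 3). The principal cell genes and Aqp6 are lower on day 21 (Aqp4 by the widest margin, -2.93), and Aqp1, Aqp7 and Aqp11 are higher.

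Levels were compared between genes after division by the union of exons, as CPM per kilobase. On day 0 the order was Aqp1 (507 ± 56.4), Aqp2 (205 ± 67.3), Aqp3 (61.5 ± 9.13), Aqp6 (40.7 ± 18.6), Aqp4 (12.2 ± 0.457), Avpr2 (8.24 ± 1.64), Aqp7 (7.14 ± 1.20) and Aqp11 (5.44 ± 1.18) (mean ± SD, n = 3). The values of neighbours overlapped between mice for Aqp3 with Aqp6, Avpr2 with Aqp7, and Aqp7 with Aqp11. On day 21 Aqp1 (168 ± 16.2), Aqp2 (91.2 ± 9.27), Aqp3 (20.4 ± 2.06) and Aqp6 (13.4 ± 1.42) kept places 1 to 4. Aqp4, at 1.99 ± 0.728 CPM per kilobase, went from place 5 to place 7 and overlapped with Aqp11 at 1.45 ± 0.167.

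Of the summed CPM per kilobase of the aquaporins, Aqp1 made up 59.1%, 67.6% and 54.4% among day-0 mice and 57.9%, 50.4% and 58.4% among day-21 mice. For Aqp2 the shares were 21.9%, 18.1% and 33.2%, then 27.9%, 34.5% and 28.5%. The shares of both genes overlapped between the groups. The mean share of Aqp4 went from 1.45% to 0.658%. The order of the low genes depends on the length used, since with the longest transcript of each gene Aqp11 would take place 6 on day 0, before Avpr2 and Aqp7.

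**Figure D4:**
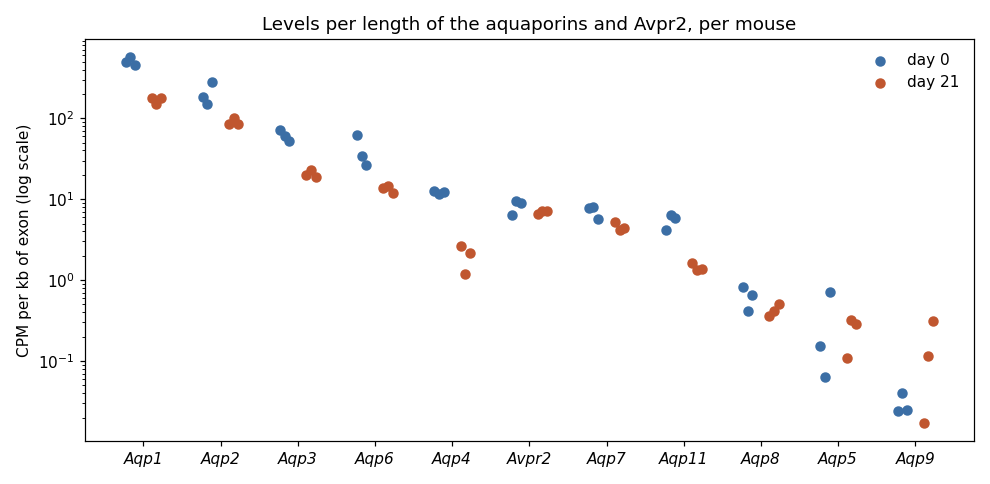
Level per length of the 8 genes and of the scarce Aqp5, Aqp8 and Aqp9 in CPM per kilobase of union exon on a log axis, by mouse and group. Aqp1 and Aqp2 lead in both groups, and Aqp4 drops from 12.2 to 1.99.

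The remaining aquaporins were scarce in these kidneys. Aqp5 (counts of 4, 2 and 18 on day 0 and 4, 14 and 12 on day 21) and Aqp8 (13, 8 and 10, then 8, 11 and 13) were tested and not called in edgeR, DESeq2 or limma-voom, with 0 of the 2 at an unadjusted p under 0.05. Aqp9, a channel for glycerol and urea that leukocytes also carry, was counted 1, 2 and 1 times in the day-0 mice and 1, 8 and 21 times in the day-21 mice and did not pass the filter. All 5 leukocyte markers were called higher, summing to 89.9 to 98.0 CPM on day 0 and 266 to 274 CPM on day 21, and their part in the Aqp9 counts was not tested. Mip and Aqp12 had 0 counts in every mouse, which allows a level of up to 0.179 to 0.309 CPM.

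Beyond the channels, 5 lists of genes around vasopressin action were examined, 82 genes in all, of which 79 were tested. Of these 13 (16.5%) were higher and 12 (15.2%) lower, with a median log2 fold change of -0.03, beside 19.6% and 15.5% of all genes tested. These shares lie near those of all genes. The split of calls depended on the scaling, with 23 higher and 10 lower under library size alone.

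In the arm from the receptor to cAMP and its targets, 4 of 21 genes were higher and 3 lower. The core of the arm was not called. Gnas, the stimulatory G protein, held 663, 725 and 636 CPM on day 0 and 564, 601 and 621 CPM on day 21 (log2 fold change -0.18, SE 0.11, adjusted p of 0.205 in edgeR). Each day-21 mouse held less Gnas than each day-0 mouse, a pattern seen in 26.4% of all genes tested. Adcy6, the adenylyl cyclase chiefly tied to vasopressin in these cells, was at 133, 136 and 147 CPM, then 121, 116 and 117 CPM, without overlap between the groups (-0.23, SE 0.10, adjusted p of 0.0804 in edgeR). Prkaca, the catalytic subunit of protein kinase A, changed by -0.05 (SE 0.11) and Creb1, the cAMP-responsive transcription factor, by 0.06 (SE 0.15), neither called.

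The called genes that degrade cAMP, the phosphodiesterases of the Pde4 family, moved in both directions. Pde4c fell from 70.0, 68.8 and 62.4 CPM to 33.2, 33.0 and 25.2 CPM (log2 fold change -1.14, SE 0.13, adjusted p of 7.44e-05 in edgeR), and Pde4d fell by 0.99 on the log2 scale. Pde4a rose by 0.94 and Pde4b by 0.68. Creb5, a relative of Creb1, rose from a low level of 1.81, 0.989 and 1.55 CPM to 7.00, 8.35 and 7.17 CPM (2.38, SE 0.29). Adcy3, another adenylyl cyclase, rose by 1.30 (SE 0.39, adjusted p of 0.0207 in edgeR). Adcy9, also an adenylyl cyclase, was called lower, with a log2 fold change of -0.73 (SE 0.22, adjusted p of 0.0206 in edgeR).

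Of 26 genes that move Aqp2 vesicles, 2 were higher (1 by DESeq2) and 1 lower. Dynll2, a dynein light chain, fell from 218, 264 and 264 CPM to 133, 139 and 137 CPM (log2 fold change -0.87, SE 0.11). Stx4a, a membrane syntaxin that takes part in vesicle fusion, rose by 0.60 (SE 0.14). Arhgdib, a GDP dissociation inhibitor that is abundant in leukocytes, rose by 1.49 (SE 0.13) beside the leukocyte markers, whose part in it was not tested.

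Of 11 regulators of Aqp2 transcription, 4 were higher (2 by DESeq2) and 1 lower. Elf3, an epithelial ETS factor, held 22.0, 25.6 and 30.1 CPM on day 0 and 56.0, 79.5 and 70.5 CPM on day 21 (log2 fold change 1.41, SE 0.16). Nfatc1, a calcineurin-dependent factor, rose by 0.71. Nr1h4, the bile acid receptor FXR, fell from 241, 191 and 121 CPM to 91.9, 67.2 and 80.8 CPM (-1.20, SE 0.22, adjusted p of 0.0015 in edgeR). Nfat5, the factor that responds to high tonicity, stood at 96.3, 69.7 and 102 CPM on day 0 and 93.5, 86.6 and 88.6 CPM on day 21, with overlapping groups (adjusted p of 0.989 in edgeR).

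Of 14 other hormones and receptors that act on collecting duct water transport, 11 were tested, with 3 higher and 3 lower. Edn1, endothelin, which opposes vasopressin in the collecting duct, rose from 2.00, 2.88 and 3.19 CPM to 26.4, 53.3 and 42.8 CPM (log2 fold change 3.92, SE 0.29, adjusted p of 5.43e-06 in edgeR). Bdkrb2, the bradykinin B2 receptor, rose by 2.26 (SE 0.53). Ptger3, a prostaglandin E2 receptor that lowers cAMP, fell from 67.4, 66.3 and 80.3 CPM to 24.5, 28.0 and 26.2 CPM (-1.44, SE 0.12). Avpr1a, the V1a vasopressin receptor, fell to 39.6% of day 0, from 24.5, 23.9 and 20.8 CPM to 8.34, 9.55 and 9.49 CPM (-1.34, SE 0.15, adjusted p of 5.28e-05 in edgeR), whereas Avp and Avpr1b had 0 counts in every mouse.

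Of 10 urea transporter and osmolyte genes, which serve the concentrated medulla, 4 were lower and 0 higher (in DESeq2 and limma-voom also 0 higher, and 0 at an unadjusted p under 0.05 in edgeR). Slc5a3, the inositol transporter, fell from 302, 261 and 414 CPM to 99.2, 95.2 and 115 CPM (log2 fold change -1.66, SE 0.17), and Slc6a12, the betaine transporter, fell from 2.91, 3.63 and 3.19 CPM to 0.919, 0.418 and 0.551 CPM (-2.37, SE 0.39). The heat shock genes Hspa1a (-1.73) and Hspa1b (-1.47) were lower too, although they are nearly identical copies whose reads may be split between them. Slc14a2, the urea transporter of the inner medulla, held 56.1, 84.1 and 105 CPM on day 0 and 95.9, 56.8 and 82.8 CPM on day 21 and was not called (-0.06, SE 0.23).

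**Figure D5:**
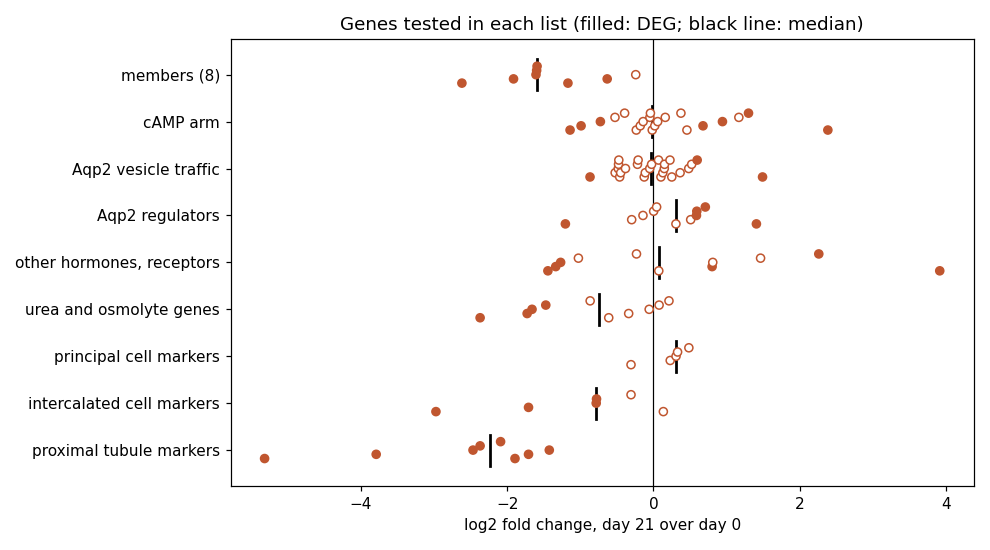
Log2 fold change (day 21 over day 0) of each tested gene by list, with the 8 members first and 3 lists of cell type markers last, filled points for DEGs, open points for genes not called, and a bar at each list's median. The members' median is -1.59 and that of the urea and osmolyte list -0.74, while the other 4 pathway lists have medians between -0.04 and 0.31.

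The day-0 mice were not alike in ways that touch the principal cell values. Day-0 replicate 3, the mouse with the highest Aqp2, also held the highest Akr1b3, aldose reductase, which makes the medullary osmolyte sorbitol and was singled out after its values were seen, at 283 CPM beside 47.9 and 128 CPM in replicates 1 and 2. Day-0 replicate 1 had the lowest Akr1b3 and the highest Aqp6, Aqp3 and Slc4a1 of the day-0 mice. How much inner medulla each piece of kidney contained is not given, and its part in these values was not tested.

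Finally, the genes whose pattern over the 6 mice was most like that of a member were found by the root mean square distance of centred log2 CPM, among 13142 genes with a mean of at least 50 counts. For Aqp1 these were Acss2 (distance 0.0289, log2 fold change -1.63), Slc6a13 (0.0475, -1.66) and Selenbp1 (0.0529, -1.62). For Aqp2 they were Dnajc28 (0.142, -1.08), Gm44311 (0.144, -0.96) and Gpd2 (0.155, -1.22), farther off than those of Aqp1. For Avpr2 they were Cox19 (0.0307, -0.22), 2010320M18Rik (0.0534, -0.29) and Vwa2 (0.0543, -0.14).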

How the data were processed

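mRNA of kidney tissue was counted in 3 control (day-0) and 3 day-21 mice. The authors extracted total RNA, sequenced paired-end cDNA libraries and deposited the raw, unnormalized count of each gene in each mouse. The submitters' processing notes name TopHat and mm10, whereas the counting program and its strand setting are not given in the sources used here. Gene identifiers are those of GENCODE mouse release M21 on GRCm38, from which positions and exon lengths were taken. Groups follow the labels, in which the day-0 mice are the control. The members and lists were chosen with earlier results of these data known.

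The main test was run with edgeR 4.0.16 in R 4.3.3 (filterByExpr at 10 counts per gene and 15 in total, TMM scaling, quasi-likelihood test, no replicate block), with Benjamini-Hochberg adjustment across 16592 genes. For DEGs the adjusted p was below 0.05 and the change exceeded 1.5-fold. DESeq2 1.42.0 and limma 3.58.1 (voom) were alternatives, as were other scalings and filters, stricter thresholds, a replicate block, and leaving out each mouse or marker. Summing Avpr2 with Arhgap4 was chosen after seeing the data. Tests across genes were tested on simulated data. Motifs were searched and figures drawn in Python 3.11.15. Mice of a group differed beyond sampling noise (chi-square per gene of at least 7.19), so none was a duplicate. Genes named are the 8 members, up to 4 DEGs of each list with the largest change (apart from an item that is not reported here), a few core genes of the lists (Gnas, Adcy6, Prkaca, Creb1, Nfat5, Slc14a2 and Hsd11b2), and the 3 genes nearest in pattern to Aqp1, Aqp2 and Avpr2. Outside this rule, the remaining aquaporins, genes at 0 counts, Arhgap4, Adipoq, Adcy9, Akr1b3, Atp6v0d2, Pde4a and Pde4b were named after their values were seen. The same holds for Foxi1, Fxyd4 and Scnn1b.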

Additional observations from a re-analysis of the deposited data

How the results depend on the processing

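Across 16 alternative fits each, Aqp1, Aqp2, Aqp3, Aqp4, Aqp6 and Aqp11 kept their sign and their call. Aqp7 lost its call under 5, and Avpr2 turned sign under library size alone (0.15) and was called under none. Over all genes the median log2 fold change was 0.03 with TMM, 0.12 with upper-quartile scaling and 0.42 with library size alone, under which 81.7% of DEGs were higher, beside 55.8% with TMM. Pathway genes called higher numbered 23 under library size alone. With thresholds of 0.01 for the adjusted p and 2 for the fold, DEGs numbered 3172 and pathway genes called higher 5. Under these thresholds 6 members were called lower, without Aqp7. Leaving out 1 mouse gave 5128 to 5920 DEGs, 6 to 7 members lower, and 10 to 13 pathway genes higher with 11 to 14 lower. The only call of a member that ended so was that of Aqp7.

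The ratios to markers moved with the marker left out, to -0.58 for Avpr2, to 0.66 and 1.20 for Aqp1, to 1.63 for Aqp7, to 0.36 and 0.91 for Aqp11, and to -0.85 and -0.24 for Aqp6. With summed in place of geometric mean marker levels the difference was 0.79 for Aqp1 and 0.50 for Aqp11. The cause was not tested. With 1 mouse left out the differences ran from -1.67 to -1.14 for Aqp2, -1.95 to -1.58 for Aqp3, -3.20 to -2.57 for Aqp4, -0.51 to -0.41 for Avpr2, 0.91 to 1.105 for Aqp1, 1.80 to 2.17 for Aqp7, 0.64 to 0.81 for Aqp11 and -0.57 to -0.29 for Aqp6.

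With a replicate block 7 members were lower and Avpr2 was at -0.23 (adjusted p of 0.251 in edgeR). The same-numbered mice deviated together only weakly (correlations of -0.019, 0.165 and 0.0896), so the samples share a number and nothing more was read from the pairing.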
